A study of Mus musculus with 12 samples.

Results

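The 10 genes described here are Atf4, Atf5, Atf3, Ddit3, Cebpb, Ppp1r15a, Trib3, Ddit4, Asns and Chac1, the core of the integrated stress response and its Atf4 targets, chosen by symbol out of 17419 genes in the table. The symbols gave 11 entries, since Ddit3 is listed under 2 identifiers, and all 11 passed the filter on low counts. They were measured in wild-type NIH-3T3 cells, a mouse fibroblast line that grows without limit in culture, kept in medium with newborn calf serum. The labels name no stress-inducing drug, starvation or gene perturbation. The groups are set apart by 4-thiouridine (4sU) alone: none (no4sU), or 800 µM for 15, 30, 60, 90 or 120 min, each with replicates A and B. 4sU is a uridine analogue that enters RNA made after its addition, and SLAM-seq uses iodoacetamide to turn it into a base that is sequenced as C. From these conversions the authors estimated, per gene and library, the new-to-total ratio, which is how much of the gene's RNA dates from after the addition of 4sU. The series asks how the length of labelling biases quantification, and for these genes the question becomes whether a stress programme appears to move when nothing but the label is added.

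In the integrated stress response, kinases that sense misfolded protein, amino acid shortage, haem shortage or double-stranded RNA phosphorylate the initiation factor eIF2. Most translation then falls, while the Atf4 mRNA, held back by short upstream reading frames, is translated better. ATF4 protein pairs with C/EBP proteins and switches on genes for amino acid supply, further transcription factors such as CHOP (Ddit3), and its own brakes, among them the eIF2 phosphatase subunit GADD34 (Ppp1r15a). In fibroblasts the programme runs at a low level during growth and rises within hours of amino acid loss or stress of the endoplasmic reticulum. Much of its control is translational, which RNA counts do not measure.

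The element through which ATF4 and C/EBP proteins bind together has the letters TGATGNAA, or TTNCATCA on the other strand. A search of RefSeq promoter windows (GRCm38.p6, 250 bases before to 50 bases after each start) matched all 10 symbols, in 11 windows. The element stood in windows of 4 of the 10 genes, against 3.97% of 32851 windows of 300 bases. The 4 stretches of 30 bases that hold it are shown because 3 of these genes, Chac1, Trib3 and Asns, are standard readouts of ATF4 whose counts are compared below. Each is given from 5′ to 3′ on the strand of its gene, with the matched letters in capitals.
Chac1, chr2:119351038-119351067, plus strand: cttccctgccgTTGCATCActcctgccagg
Atf3, chr1:191183425-191183454, minus strand: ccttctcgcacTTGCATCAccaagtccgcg
Trib3, chr2:152344028-152344057, minus strand: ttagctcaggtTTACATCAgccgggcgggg
Asns, chr6:7693214-7693243, minus strand: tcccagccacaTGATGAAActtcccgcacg
Counted from the RefSeq start, the match begins at -193 in Chac1, -110 in Atf3, -23 in Asns and 14 in Trib3. Chac1 and Atf3 share the same 8 matched letters. The first 200 bases of the Chac1 window (chr2:119350992-119351191, plus strand), with the same match in capitals, read
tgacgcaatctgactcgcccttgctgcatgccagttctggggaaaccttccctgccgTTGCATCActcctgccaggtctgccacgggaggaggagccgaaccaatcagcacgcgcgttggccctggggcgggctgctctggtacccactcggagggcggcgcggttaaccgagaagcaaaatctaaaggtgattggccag
Of the other letters searched on both strands, the cAMP response element TGACGTCA was found for Ppp1r15a alone (1.79% of all windows). The CCAAT box, CCAAT or ATTGG, was found for 6 of the 10 genes (37.4% of all windows). None of the 3 motifs contains another. A match describes the letters in a window and does not show binding.

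Libraries held between 9917026 and 13739380 counts, which is enough for 9 of the 11 entries to average at least 100 counts. Atf3, with 40 to 79 counts per library, and the second Ddit3 entry, with 15 to 31, are the exceptions. Levels are in CPM, counts relative to the size of the library, with library sizes scaled with edgeR's TMM factors, which lay between 0.97 and 1.02. All 8 fibroblast markers averaged at least 100 counts. Their summed level lay between 15800 and 19400 CPM and was highest on average at 120 min (19100 CPM, against 15800 CPM without 4sU), and its part in the results was not tested. Marker sums of other cell types were at most 0.904 CPM (epithelial, 2 of 4 markers in the table), 6.9 CPM (leukocyte, 3 of 4), 1.7 CPM (endothelial, 3 of 3) and 0.0944 CPM (neural, 1 of 3). The 2 unlabelled libraries differed from each other: over genes with at least 100 counts on average, the SD of their log2 difference was 0.21, and for Cebpb the difference (A minus B) was 0.56. Comparisons with no4sU are therefore given beside 120 against 15 min, which leaves these libraries out of the fold change. In bulk RNA, fewer cells with a transcript and less of it per cell cannot be told apart.

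Per base of gene length, Atf4 was the most abundant of the 10 without 4sU, at 273 ± 19.8 RPKM, its CPM per kilobase of gene length (SD, n = 2), above 97.8% of genes with at least 100 counts on average. Asns, which makes asparagine from aspartate and glutamine, followed at 106 ± 8.47, and Atf5, a transcription factor controlled by upstream reading frames like Atf4, at 96.4 ± 15.4. These 2 did not differ beyond their spread, whereas Atf4 lay clear of both. Chac1 (31.3 ± 1.24), which degrades glutathione, Cebpb (27.9 ± 7.72), Ppp1r15a (24.4 ± 0.467) and Ddit3 (24.0 ± 0.162) formed a middle group, in which the Cebpb libraries at 33.4 and 22.5 spanned the other 3. Ddit4, an inhibitor of the growth kinase mTORC1, stood at 14.6 ± 1.4, and Trib3, a pseudokinase that restrains ATF4 and CHOP, at 10.6 ± 1.29. Atf3, a stress-induced repressor of the same protein family, was lowest at 2.4 ± 0.634, above only 3.2% of those genes. Among the same genes Asns lay above 93.7%, Chac1 above 75.2%, Ddit3 above 68.0% and Trib3 above 39.5%, so the levels of the stress targets in the unlabelled culture spread over most of the range.

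Atf4 (ENSMUSG00000042406, chr15:80255184-80257541, plus strand, GENCODE M21 on GRCm38) fell with labelling time. Without 4sU its level was 580 CPM in replicate A and 523 in B. After 15 min it was 519 and 539 CPM, after 30 min 508 in both, after 60 min 499 and 506, after 90 min 488 and 490, and after 120 min 454 and 453. Both libraries at 120 min were below all 10 others, and the group means fell at each step. In edgeR's quasi-likelihood fit over all 12 libraries, the log2 fold change was -0.22 ± 0.0522 (SE) at 120 against 15 min (adjusted p = 0.0061) and -0.28 ± 0.0521 at 120 min against no4sU (adjusted p = 0.00165). Over the 10 labelled libraries the slope was -0.11 ± 0.0182 per 60 min (adjusted p = 4.97e-06). With only the 120 and 15 min groups fitted, the change between them was -0.23 (edgeR adjusted p = 6.65e-06). The change at 120 against 15 min missed the threshold when 15 min replicate B was left out (-0.20, adjusted p = 0.0722) or either 120 min library (-0.22 each, adjusted p = 0.0506 without A, 0.0583 without B), and the change against no4sU missed it when only these 2 groups were fitted (adjusted p = 0.101).

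**Figure D1:**
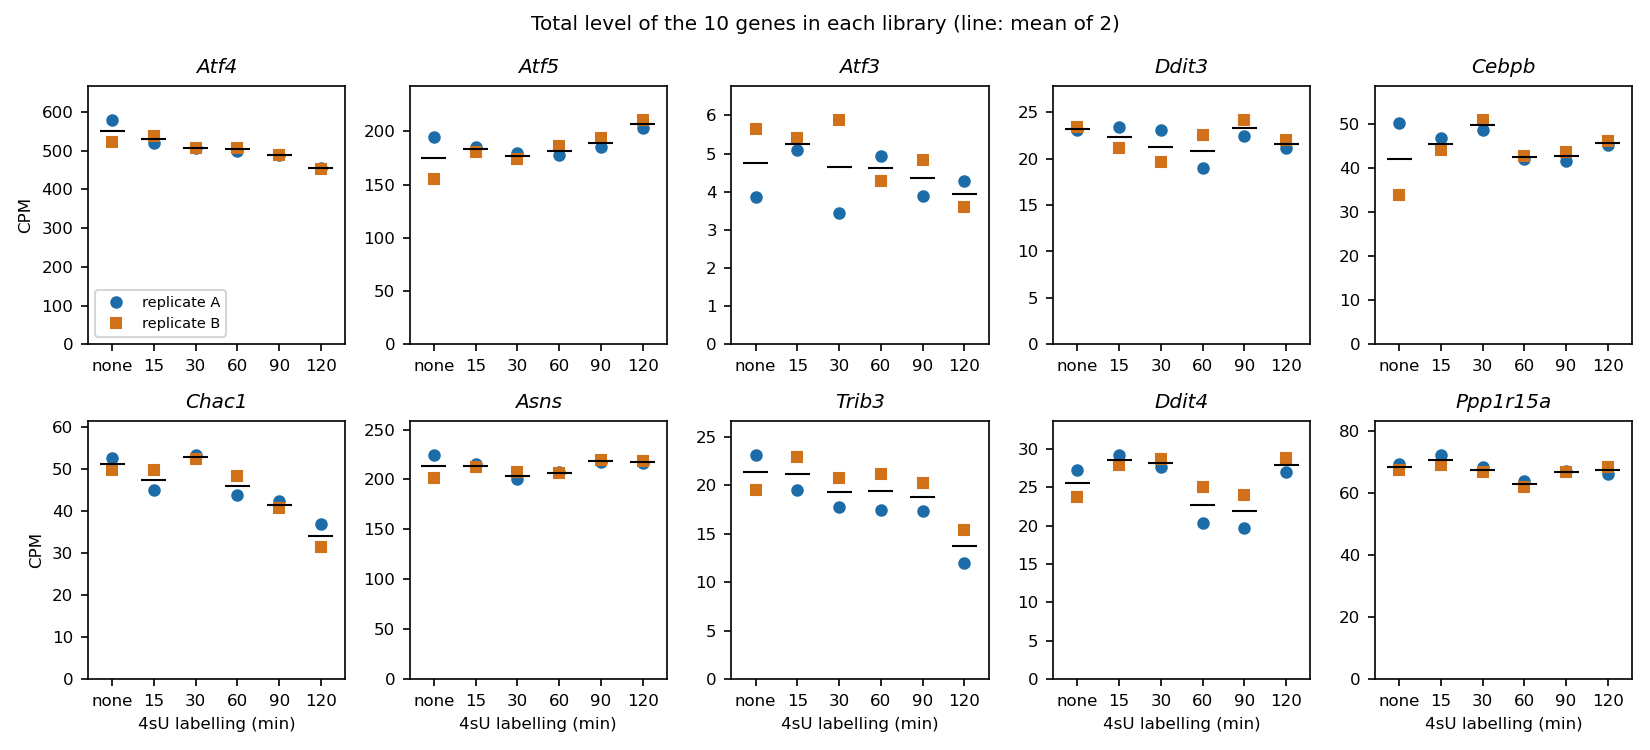
Total level of each of the 10 genes (CPM, linear axis from 0) in each of the 12 libraries, by minutes of 4sU ("none" is no4sU); circles are replicate A, squares replicate B, lines the mean of 2. Atf4, Chac1 and Trib3 are lowest at 120 min, Atf5 is highest there, and the unlabelled libraries are far apart for Cebpb and Atf5.

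Chac1 (ENSMUSG00000027313, chr2:119351229-119354381, plus strand) is among the genes most strongly induced by ATF4 and CHOP. Its level was 52.6 and 49.7 CPM without 4sU, 44.9 and 49.7 after 15 min, 53.4 and 52.3 after 30 min, 43.8 and 48.2 after 60 min, 42.3 and 40.7 after 90 min, and 36.8 and 31.3 after 120 min. The 30 min libraries were as high as the unlabelled ones, and the fall came after them, with both 120 min libraries lowest. The log2 fold change was -0.48 ± 0.0888 at 120 against 15 min (edgeR adjusted p = 0.00122) and -0.59 ± 0.0873 against no4sU (adjusted p = 0.000309), with a slope of -0.30 ± 0.0438 per 60 min (adjusted p = 5.66e-07). At 120 against 15 min the call held with each library of these 2 groups left out in turn, the highest adjusted p being 0.0473 without 120 min replicate B.

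Trib3 (ENSMUSG00000032715, chr2:152337422-152344032, minus strand) also fell. It stood at 23.2 and 19.5 CPM without 4sU, 19.5 and 22.9 after 15 min, 17.8 and 20.8 after 30 min, 17.5 and 21.2 after 60 min, 17.4 and 20.3 after 90 min, and 12 and 15.4 after 120 min. Up to 90 min the groups overlapped, and both 120 min libraries lay below the rest. The log2 fold change was -0.61 ± 0.143 at 120 against 15 min (edgeR adjusted p = 0.00568), -0.62 ± 0.141 against no4sU (adjusted p = 0.00728) and -0.27 ± 0.0637 per 60 min (adjusted p = 0.000678). With only the 120 and 15 min groups fitted, the first of these was -0.62 (edgeR adjusted p = 6.99e-05). Replicate A at 120 min had 130 counts, the fewest for Trib3, and without that library the first 2 changes were -0.46 (adjusted p = 0.0904) and -0.46 (adjusted p = 0.115). The first also missed the threshold without 15 min replicate B (-0.50, adjusted p = 0.0855), and the second when only the 2 groups were fitted (adjusted p = 0.0561).

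Atf5 (ENSMUSG00000038539, chr7:44812256-44816658, minus strand) went the other way. Its levels were 195 and 155 CPM without 4sU, 185 and 181 after 15 min, 180 and 174 after 30 min, 178 and 186 after 60 min, 185 and 194 after 90 min, and 203 and 211 after 120 min. The 120 min libraries were the 2 highest of the 12, and the unlabelled replicate B was the lowest. The rise was called against no4sU (log2 fold change 0.25 ± 0.0748, edgeR adjusted p = 0.0317) and as a slope (0.11 ± 0.0237 per 60 min, adjusted p = 0.000381), and not at 120 against 15 min (0.18 ± 0.0749, adjusted p = 0.0981). In that last comparison it was called at the same fold change with only the 2 groups fitted (adjusted p = 0.00158) and with no filter on low counts (adjusted p = 0.0404), and in none of the other alternatives, whose adjusted p lay between 0.0955 and 0.87. Against no4sU the call was lost when no4sU replicate B was left out (0.09, adjusted p = 0.28) or either 120 min library (0.28 without A, 0.22 without B, adjusted p = 0.0971 and 0.207), with scaling by library size (0.18, adjusted p = 0.112) and with only the 2 groups fitted (0.25, adjusted p = 0.222). Atf5 overlaps Nup62 and Il4i1 on the other strand, and no source used here states whether strand was used in counting.

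The other transcription factors were not called in any comparison with 4sU on the counts as deposited with all libraries used. Ddit3 (chr10:127290774-127296288, plus strand), which encodes the pro-apoptotic partner CHOP, lay between 19.0 and 24.2 CPM in all 12 libraries. Its log2 fold change was -0.04 ± 0.109 at 120 against 15 min (edgeR adjusted p = 0.827). Cebpb (chr2:167688915-167690418, plus strand), a C/EBP protein that dimerises with ATF4 and whose gene overlaps Tmem189 on the other strand, stood at 50.2 and 33.8 CPM without 4sU, against 41.5 to 50.9 CPM in the labelled libraries, so the unlabelled pair spanned nearly the whole range. Its change at 120 min against no4sU depended on which of these was used: 0.14 ± 0.116 with both (adjusted p = 0.456), 0.43 with replicate A left out (adjusted p = 0.000213) and -0.14 with B left out (adjusted p = 0.287). Atf3 (chr1:191170296-191218039, minus strand) read 3.87 and 5.65 CPM without 4sU, 5.1 and 5.42 after 15 min and 4.27 and 3.6 after 120 min. Both 120 min libraries lay below the 15 min ones, but the change, -0.43 ± 0.242 (adjusted p = 0.223), did not pass the test.

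The second Ddit3 entry (ENSMUSG00000116429) covers 105 bases in 2 exons of 63 and 42 bases inside the Ddit3 locus (chr10:127290829-127293753), 35 codons with the stop. The Ddit3 mRNA is known to carry a short upstream reading frame that holds back CHOP translation. Reads of this entry and of the 5′ end of Ddit3 cannot be told apart from the counts, and Ddit3 also overlaps Mars and Gm4189 on the other strand. The log2 fold change of the entry was -0.40 ± 0.282 at 120 against 15 min (edgeR adjusted p = 0.334), with 26 and 27 counts at 15 min and 15 and 28 at 120 min.

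The feedback gene Ppp1r15a (chr7:45522916-45526268, minus strand, overlapped by Tulp2 on the other strand) was not called on the counts as deposited. All 12 libraries lay between 62.1 and 72.5 CPM, and its log2 fold change at 120 against 15 min was -0.07 ± 0.0644 (edgeR adjusted p = 0.48). Ddit4 (chr10:59949669-59951834, minus strand) had its lowest libraries at 60 and 90 min: 29.3 and 27.9 CPM after 15 min, 27.7 and 28.7 after 30 min, 20.4 and 25.0 after 60 min, 19.7 and 24.0 after 90 min, and 27 and 28.8 after 120 min. Against no4sU (27.3 and 23.8 CPM) none of these times passed the test, the largest change being -0.22 ± 0.116 at 90 min (adjusted p = 0.373). Asns (chr6:7675169-7693254, minus strand) lay between 200 and 225 CPM, with a change of 0.03 ± 0.0568 at 120 against 15 min (adjusted p = 0.722). Of the 4 genes with the composite element shown above, Chac1 and Trib3 fell, where 11.3% of all genes were called lower, and Asns and Atf3 did not pass the test in either direction.

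In counts, 3 of the 11 entries were called at 120 against 15 min, all lower (Atf4, Chac1, Trib3), where 19.3% of all 11564 genes tested were called in either direction, 7.93% as higher and 11.3% as lower. At 120 min against no4sU it was 4 of 11, 3 lower and Atf5 higher, against 14.2% of all genes (8.78% lower, 5.43% higher). By slope it was the same 4 of 11, against 37.8% of all 11526 genes (18.3% higher, 19.5% lower). The median log2 fold change of the 11 entries at 120 against 15 min was -0.07, and that of all genes 0.006. At 15, 30, 60 and 90 min against no4sU edgeR called 0 of the 11, against 0.0%, 0.0%, 0.0173% and 1.39% of all genes. At an unadjusted p below 0.05 there were 0, 2, 1 and 2 of the 11, against 5.34%, 5.79%, 7.74% and 16.2% of all genes, namely Cebpb and Atf4 at 30 min, Atf4 at 60 min, and Chac1 (-0.30) and Atf4 (-0.17) at 90 min. Comparisons with no4sU share the 2 unlabelled libraries, and the labels do not say whether replicates A and B came from separate cultures, so p-values measure the spread between these libraries.

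**Figure D2:**
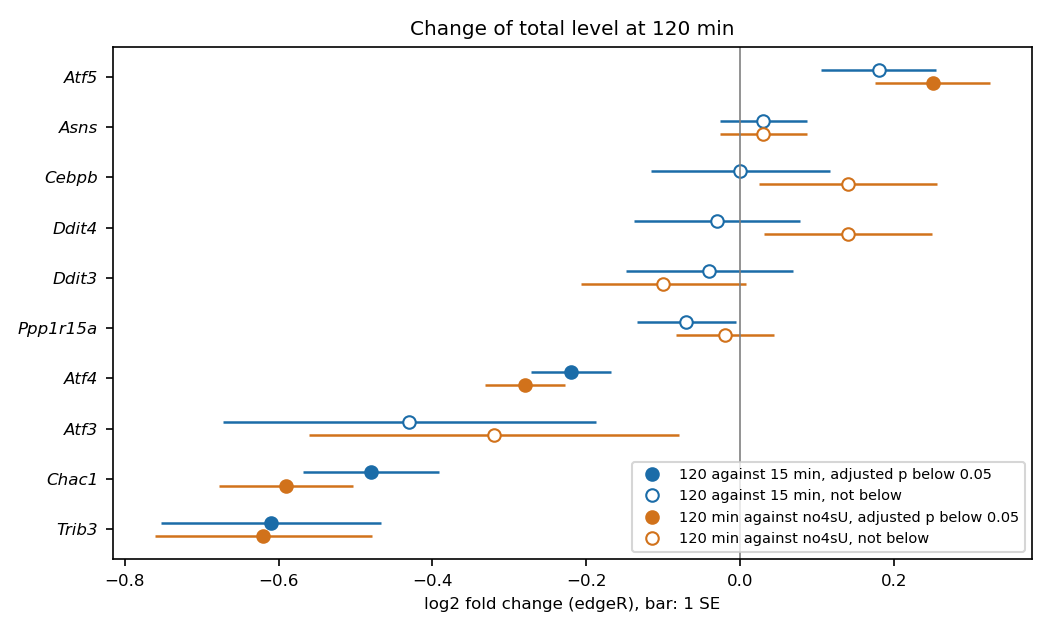
Log2 fold change of the total level with its SE (edgeR, 12 libraries) for each of the 10 genes, at 120 against 15 min (blue) and at 120 min against no4sU (orange); filled points have an adjusted p below 0.05. Chac1, Trib3 and Atf4 are filled and below 0 in both comparisons, and Atf5 is filled and above 0 against no4sU only, a difference between the comparisons that was not tested.

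The new-to-total ratio split the 10 genes into 8 whose RNA was mostly new by 120 min and 2 whose RNA was mostly old. The ratio rises with labelling time by construction, so it is described and not tested. At 60 min, 87.1 ± 6.87% of Ddit4 RNA was new (SD, n = 2), 82.3 ± 5.01% of Ppp1r15a, 68.4 ± 24.0% of Atf3, 66.6 ± 4.38% of Chac1 and 60.6 ± 3.44% of Ddit3. Cebpb (46.9 ± 5.81%), Trib3 (44.7 ± 3.23%) and Atf4 (43.3 ± 0.396%) were lower, and Atf5 (9.38 ± 0.488%) and Asns (9.2 ± 0.219%) lowest. The median of the 9065 genes with at least 100 counts on average was 15.5% at this time. Fast replacement was thus found in regulators, both activating and restraining, and in Chac1, while the biosynthetic enzyme Asns and the factor Atf5 lay under the median.

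**Figure D3:**
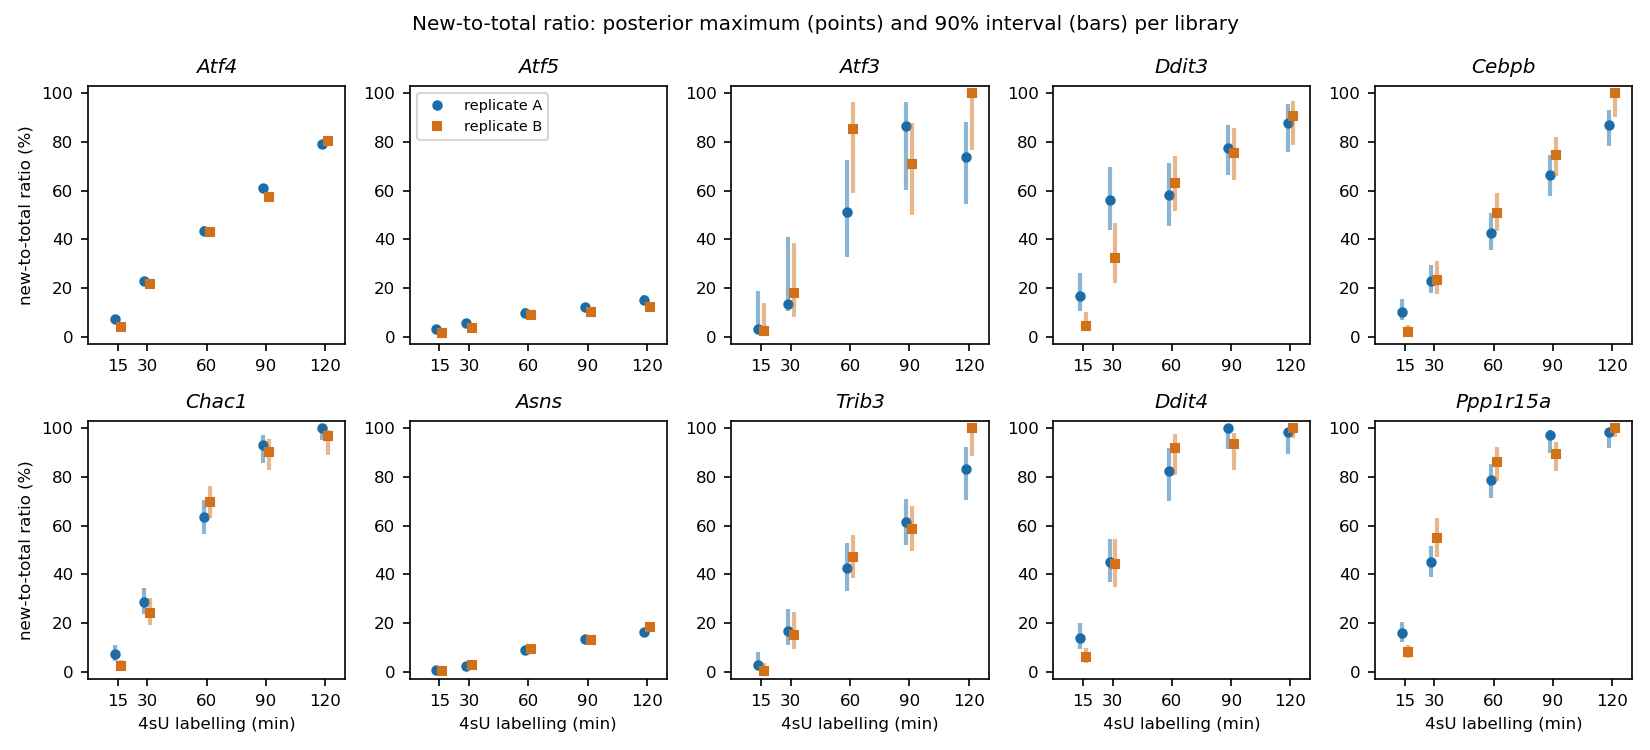
New-to-total ratio (percent) of each gene in the 10 labelled libraries by minutes of 4sU; points are the posterior maximum, bars the deposited 90% interval, circles replicate A and squares replicate B. Ddit4, Ppp1r15a and Chac1 come close to 100% by 120 min, Atf4 reaches 79.0% and 80.5%, and Asns and Atf5 stay under 20%.

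The order of these ratios at 120 min was Ppp1r15a (99.2%), Ddit4 (99.2%), Chac1 (98.5%), Cebpb (93.5%), Trib3 (91.6%), Ddit3 (89.3%), Atf3 (86.9%), Atf4 (79.7%), the second Ddit3 entry (72.8%), Asns (17.2%) and Atf5 (13.8%). From Ppp1r15a down to Atf4, the libraries of each gene overlapped those of the next, so these neighbours did not differ beyond the spread of their libraries. The 90% intervals of Chac1 and Cebpb overlapped in replicate B and were apart in A (95.3 to 99.9% and 78.5 to 93.2%). The second Ddit3 entry, at 74.1% and 71.5%, had 90% intervals (40.5 to 93.5% and 44.1 to 91.2%) wide enough to hold Atf4. Atf4 and Asns were apart in both libraries, at 79.0% and 80.5% against 16.2% and 18.2%. Asns and Atf5 (15.3% and 12.2%) did not overlap between libraries, but their 90% intervals did in replicate A (14.8 to 17.8% and 13.7 to 17.1%). For Cebpb, Trib3 and Atf3, replicate B was listed at 100% and replicate A at 86.9%, 83.1% and 73.8%. A posterior maximum of 100% lies at the edge of what the estimate can take and can exceed the upper bound of its own interval, which for Cebpb was 90.2 to 99.6%.

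Among all genes, Ppp1r15a ranked above 99.5% at 15 min and Ddit3 and Ddit4 above 99.3% and 99.1%. The ranks of Atf4 went down with time, from above 97.1% of genes at 15 min to above 87.0% at 120 min. Those of Atf5 went down furthest of the 10, from 83.7% after 15 min of labelling to 44.5%, 24.5% and 10.8% after 30, 60 and 120 min. Asns was low throughout, at 26.9%, 16.5%, 23.8% and 17.9% at the same times. At 15 min the libraries disagree: replicate A was higher than B in each of the 10 genes, as for Atf4 (7.24% and 4.04%), Ddit3 (16.9% and 4.3%) and Cebpb (10.2% and 2.12%). The library medians over all genes were also apart at this time, at 1.0 ± 0.474% (SD, n = 2), so the disagreement was not confined to these genes.

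Under the assumption that a gene's level is constant and each molecule decays at the same rate, the ratio gives an apparent half-life. At 60 min it was 20.2 ± 5.3 min for Ddit4 (SD, n = 2), 24.1 ± 3.89 min for Ppp1r15a, 38.0 ± 4.53 min for Chac1 and 44.8 ± 4.17 min for Ddit3. It was 66.4 ± 11.5 min for Cebpb, 70.5 ± 6.93 min for Trib3 and 73.3 ± 0.919 min for Atf4, against a median of 247 ± 7.22 min over all genes. Asns and Atf5 came to 430 ± 10.6 and 423 ± 22.6 min. The estimates moved with labelling time: for Atf4 from 83.0 ± 3.61 min at 30 min of labelling to 52.1 ± 1.77 min at 120 min, and for all genes from a median of 368 ± 11.4 to 198 ± 5.41 min. Those of Atf5 did not shorten, at 448 ± 136 min after 30 min and 570 ± 99 min after 120 min. A half-life here is a comparison at 1 labelling time, not a constant of the gene.

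Splitting each total into a new and a pre-existing part shows how much of it was new at each time. Pre-existing Atf4 RNA went from 499 ± 25.5 CPM at 15 min to 395 ± 4.25, 285 ± 4.79, 199 ± 12.5 and 92.1 ± 5.04 CPM at 30, 60, 90 and 120 min, while new Atf4 RNA went from 29.7 ± 11.2 to 362 ± 3.92 CPM. The new part thus made up most of the loss, and the total fell by the remainder. For Ppp1r15a the old part went from 62.3 ± 1.79 to 0.51 ± 0.721 CPM and the new part from 8.51 ± 4.24 to 66.9 ± 2.38 CPM, a near-complete exchange within a total of 70.8 ± 2.45 CPM at 15 min and 67.4 ± 1.66 CPM at 120 min. For Chac1 the new part reached 38.1 ± 1.73 CPM at 90 min and 33.6 ± 4.57 CPM at 120 min, under the 45.1 ± 4.79 CPM of old RNA present at 15 min. For Trib3 it was 11.3 ± 0.867 and 12.7 ± 3.79 CPM at these times, against 20.9 ± 2.76 CPM of old RNA at 15 min.

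**Figure D4:**
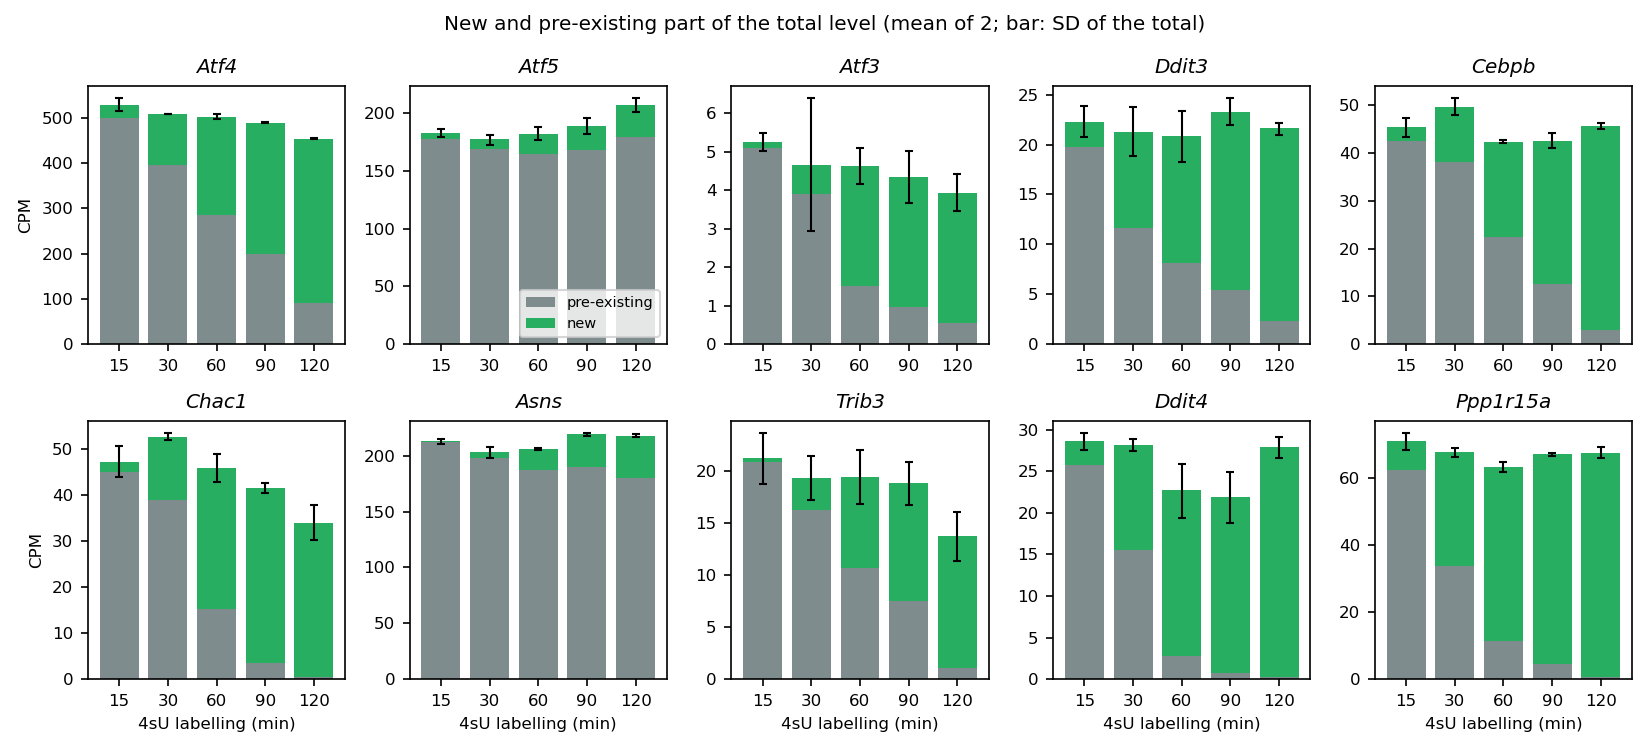
Mean level of pre-existing (grey) and new RNA (green) of each gene (CPM, bars from 0, n = 2) at each labelling time; error bars are the SD of the total. The grey part nearly vanishes by 120 min for Ppp1r15a, Ddit4 and Chac1, and stays at 180 and 179 CPM for Asns and Atf5.

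On the log2 scale with a pseudocount of 1 CPM, pre-existing RNA changed between 15 and 120 min by -5.48 ± 0.717 for Ppp1r15a, -5.04 ± 0.686 for Chac1, -4.47 ± 0.382 for Ddit4 and -4.05 ± 1.97 for Cebpb (SD of 2 libraries). It changed by -3.65 ± 1.13 for Trib3, -2.66 ± 0.139 for Ddit3, -2.43 ± 0.0781 for Atf4 and -2.07 ± 0.767 for Atf3. Asns (-0.23 ± 0.0148) and Atf5 (0.0 ± 0.0777) changed least of the 10, and the median over all genes was -0.60. Both libraries at 120 min are set against the same 15 min mean, so the SD leaves out the spread at 15 min. The pseudocount limits the change of low genes. CPM is relative to the size of the library, so these changes do not give the amount of old RNA kept. The old part of Atf5 read 165 ± 6.01 CPM after 60 min of labelling and 179 ± 9.68 CPM after 120 min. An amount of RNA made before 4sU cannot increase, and the cause of the higher value was not tested.

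Across all genes, the change of the total went with the ratio: genes with little new RNA were higher and genes with much new RNA lower at 120 min. In the second decile of genes by ratio (13.4 to 18.1% new at 120 min), which holds Asns and Atf5, the median log2 fold change at 120 against 15 min was 0.15, and 25.7% of genes were called higher. In the decile from 67.8 to 85.2% new, which holds Atf4, it was -0.23, with 41.1% called lower. In the top decile (85.2 to 100% new), with Chac1, Trib3, Cebpb, Ppp1r15a, Ddit3 and Ddit4, it was -0.27, with 47.3% called lower. Atf4 (-0.22) sat at the middle of its decile, above 52.2% of its genes, and Atf5 (0.18) above 63.3%. Chac1 (-0.48) was above 14.7% and Trib3 (-0.61) above 3.53% of the top decile, whereas Ppp1r15a, Ddit3, Ddit4 and Cebpb were above 86.8%, 88.8%, 89.5% and 92.3% of it. Asns (0.03) was above 7.85% of its decile. At 120 min against no4sU, where Atf5 was called, Atf5 (0.25) was above 89.8% of its decile and Atf4 (-0.28) above 35.2%. These are places in a ranking, and the difference of a gene from its decile was not tested.

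**Figure D5:**
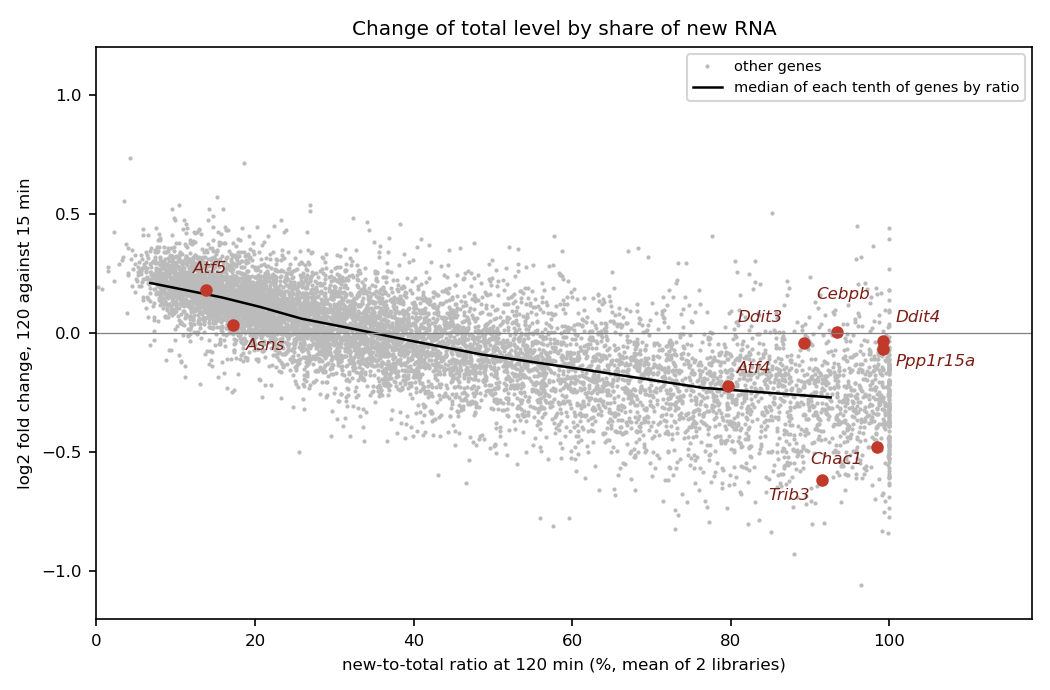
Log2 fold change at 120 against 15 min (edgeR) against the new-to-total ratio at 120 min (percent, mean of 2) for 9063 genes, grey, with 2 more beyond the axis; the line joins the medians of deciles of genes by ratio, and red points are 9 of the 10 genes (Atf3 averaged under 100 counts). Atf4 and Atf5 lie near the line, Chac1, Trib3 and Asns below it, and Cebpb, Ddit3, Ddit4 and Ppp1r15a above it.

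The calls were then repeated with labelled RNA added back, at a share set to remove this trend. If labelled molecules were missing from the counts, the missing share at which change and ratio become uncorrelated over genes averaged 14.6% at 60 min, 22.5% at 90 min and 31.3% at 120 min. It came out negative at 15 min (-29.7% in replicate A and -2.98% in B) and averaged -1.08% at 30 min. A negative share cannot be read as a loss or as its absence, and loss at these times was not tested. These 2 groups were left as deposited. The labelled part of each count at 60, 90 and 120 min was scaled up accordingly, which by construction removes the trend there. It also raises genes with much new RNA, such as Ppp1r15a and Ddit4 (-0.02 and 0.14 against no4sU as deposited). The calls after this scaling therefore do not measure how far the trend set the calls. Then 0 of the 11 entries were called at 120 against 15 min by edgeR, against 2.15% of all genes (0.707% higher, 1.45% lower), and 4 had an unadjusted p below 0.05, against 15.5% of all genes. Atf4 had a log2 fold change of -0.00305 (adjusted p = 0.99), Chac1 -0.17 (adjusted p = 0.363) and Trib3 -0.34 (adjusted p = 0.26). At 120 min against no4sU the calls were 2 of 11, both higher, against 1.62% of all genes (0.776% higher, 0.845% lower): Ppp1r15a at 0.29 (adjusted p = 0.0214) and Ddit4 at 0.45 (adjusted p = 0.0391). By slope there were 4 of 11, against 13.4% of all genes (5.63% higher, 7.77% lower): Ppp1r15a (0.17, adjusted p = 0.000124), Ddit3 (0.17, adjusted p = 0.0187) and Cebpb (0.12, adjusted p = 0.0304) higher, and Chac1 (-0.12, adjusted p = 0.0494) lower. The falls of Atf4 and Trib3 and the rise of Atf5 were called on the counts as deposited and in none of the 3 comparisons after this scaling. Whether labelled RNA was lost or made in smaller amount cannot be told apart in these data.

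The other genes of the pathway, were taken from 6 lists with 83 genes tested. At 120 against 15 min, edgeR called 5 of the 83 higher and 15 lower, against 7.93% and 11.3% of all genes. Fewer list genes, and fewer of all genes, were called in each fit with 1 library left out. With the labelled part scaled up, 1 of the 83 was called, against 2.15% of all genes. On the counts as deposited, the share of the list genes called higher was thus near that of all genes. The share called lower was above it, a difference that was not tested. By slope, 16 of the 83 were called higher and 30 lower, against 18.3% and 19.5% of all genes. None of the 4 eIF2 kinases was called, with log2 fold changes of 0.09 (Eif2ak1), -0.13 (Eif2ak2), -0.19 (Eif2ak3) and -0.16 (Eif2ak4). Of these, 1 (Eif2ak4) had an unadjusted p below 0.05, against 33.4% of all genes, and by slope 3 were called lower, against 19.5% of all genes. Among 14 genes of eIF2, its exchange factor and its phosphatase, Ppp1r15b, the constitutive partner of the same phosphatase that Ppp1r15a serves under stress, fell from 184 and 203 CPM to 157 and 154 (log2 fold change -0.32 ± 0.0593, adjusted p = 0.00132), at 94.9% new. The catalytic subunit Ppp1ca rose from 542 and 533 to 617 and 612 CPM (0.19 ± 0.0544, adjusted p = 0.0168), at 12.8% new.

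Of 21 further ATF4 targets for amino acid supply, 4 fell and 1 rose, against 11.3% and 7.93% of all genes, with a list median of -0.02 against 0.01 for all genes. Slc38a2, a sodium-coupled carrier of small neutral amino acids, changed most, from 580 and 568 CPM to 361 and 374 (log2 fold change -0.64 ± 0.0635, edgeR adjusted p = 3.43e-06), at 90.9% new. At 120 against 15 min, Slc38a2 was the 1 gene of the 83 still called with the labelled part scaled up (-0.37, edgeR adjusted p = 0.00293). By slope with the same scaling, 13 of the 83 were called lower and 1 higher, against 7.77% and 5.63% of all genes. Those lower included Slc38a2, Slc3a2, Slc7a1, Stc2, Atf7 and Creb1. Slc3a2, the heavy chain of several amino acid exchangers, fell from 292 and 312 to 227 and 227 CPM (-0.41 ± 0.0643, adjusted p = 0.000331), and Slc7a1, a carrier of cationic amino acids, from 270 and 277 to 234 and 211 CPM (-0.30 ± 0.0604, adjusted p = 0.00214). Slc1a4 fell too (-0.20) and Aldh1l2 rose (0.21), both named after their values were seen. The serine synthesis enzymes Phgdh (0.14, adjusted p = 0.121) and Psat1 (0.08, adjusted p = 0.23), picked as pathway neighbours of Asns in function after their values were seen, had 11.2% and 14.4% new RNA, close to Asns.

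Of 17 targets in stress signalling, 0 rose and 5 fell (list median -0.09), against 7.93% and 11.3% of all genes, and 0 higher and 8 lower genes had an unadjusted p below 0.05, against 15.7% and 17.7% of all genes. Nfil3, a repressor of the bZIP family, went from 21.5 and 20.9 to 14.5 and 15.6 CPM (-0.49 ± 0.131, edgeR adjusted p = 0.0129), and the secreted glycoprotein gene Stc2 from 40.0 and 38.9 to 31.1 and 27.7 CPM (-0.43 ± 0.0923, adjusted p = 0.00354). The pro-apoptotic Bcl2l11 changed by -0.49 ± 0.162 (adjusted p = 0.0396) on 12.5 and 12.1 against 7.34 and 9.97 CPM. Trib1 (-0.39) and Herpud1 (-0.38) were the other two, named after their values were seen. Of 13 bZIP relatives, Atf7 (-0.39 ± 0.0845, adjusted p = 0.00374), Creb1 (-0.37 ± 0.0924, adjusted p = 0.00827) and Jun (-0.26 ± 0.0891, adjusted p = 0.0452) fell and Atf6b (0.22, named after its value was seen) rose. Of 14 genes in the other arms of the unfolded protein response, the transcription factor gene Xbp1 (-0.38 ± 0.0745, adjusted p = 0.00186) and its activating sensor Ern1 (-0.34 ± 0.107, adjusted p = 0.0307) fell, and the chaperone genes Hsp90b1 (0.18 ± 0.0502, adjusted p = 0.0185) and Pdia6 (0.17, named after its value was seen) rose. Over the 6 lists, the 15 genes that fell had between 56.2% and 100% new RNA at 120 min, and the 5 that rose between 7.46% and 15.5%. Genes that were not called lay both ways (change ± SE). Fos (0.28 ± 0.304 at 94.6% new, on only 22.9 counts on average) and Nupr1 (0.15 ± 0.0946 at 71.5%) had positive values. Cth (-0.23 ± 0.117 at 25.4%) and Ero1l (-0.09 ± 0.0673 at 18.2%) had negative ones. These genes were named after their values were seen.

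By likeness of level over the 12 libraries, the genes closest to Atf4 were Cdca4 (Pearson r 0.955), Tagap1 (0.94) and Tnfrsf12a (0.934). Those closest to Cebpb were Tcf7l1 (0.937), H2ax (0.894) and Fyb (0.863), and those closest to Ddit3 were Mab21l1 (0.842), Clba1 (0.8) and Stk11ip (0.797). These values describe log2(CPM + 1) over libraries that share their labelling groups, were the highest of 9065 genes, and carry no test.

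The ratio is read from uridines, and the 10 genes differ in how many they have. In the longest protein-coding transcript (GENCODE M21), Cebpb was 16.4% U, lower than all but 0.569% of genes, Ddit3 17.6%, Ppp1r15a 18.7% and Atf5 20.2%, against a median of 24.7% over 8957 of the 9065 genes. Ddit3, with 157 U in 890 bases, and Cebpb, with 246 in 1504, gave fewer sites for conversions than Ppp1r15a with 526 in 2809. Chac1 (23.5%), Ddit4 (23.2%), Atf4 (22.4%) and Trib3 (21.9%) lay nearer the median, and Asns (26.1%) above it. High and low ratios therefore both occurred among the U-poor genes, Ppp1r15a at 99.2% and Atf5 at 13.8% new, and the part of base content in the ratios was not tested.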

How the data were processed

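For 12 libraries of NIH-3T3 RNA, 2 per group, 1 table with 17419 genes was deposited, and each column was assigned to the sample whose label it carries. Its values are the authors' estimated counts per gene and library, without scaling, of which 20.4% were not whole (tolerance 1e-06) and were rounded for the count tests. The new-to-total ratio was deposited as a fraction, per the file headers as posterior maximum, mean and 0.05 and 0.95 quantiles, and is printed as a percent. The deposited alpha and beta columns, each a score, were not used. Cutadapt, Bowtie2 2.3.0 and STAR 2.7.10b are named in the submitters' processing notes. The counting tool, the use of strand and the authors' build are stated in no source used here. Counts of conversions were not analysed here.

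Counts were fitted with edgeR 4.0.16 in R 4.3.3 (filterByExpr, TMM, quasi-likelihood, Benjamini-Hochberg over all genes tested, threshold 0.05, common biological coefficient of variation 4.44%) over all 12 libraries in 1 fit. The slope used the 10 labelled ones. The script was tested on simulated data. An exact permutation test of 2 against 2 libraries cannot give p below 0.333 and was not used. DESeq2 1.42.0 was an alternative. The new part of a level is ratio times CPM. The half-life is the labelling time times ln 2 over -ln(1 - ratio), for ratios between 0.01 and 0.99. Comparisons over ratios used genes averaging 100 counts or more. Tables and figures used Python 3.11.15, pandas 2.3.3 and matplotlib 3.10.9.

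The 10 genes and the 6 lists were chosen with earlier results of these data known. Named were all 10 genes, up to 3 called genes per list with the largest change at 120 against 15 min and a mean count of at least 100, and the 3 genes most like Atf4, Ddit3 and Cebpb in level. Gene locations come from GENCODE M21 (GRCm38) by Ensembl ID, and promoter windows from RefSeq (GRCm38.p6), both counted from 1. Alternatives were the scaling, the filter, the tool, the groups in the fit, a replicate block, the scaled labelled part, each library left out, the pseudocount (0.5 CPM) and the posterior mean. Alternatives for the lists were chosen after seeing the data.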

Additional observations from a re-analysis of the deposited data

How the results depend on the processing

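Genes called at 120 min against no4sU, 1643 as reported, were 171 with only the 2 groups fitted, 946 with DESeq2, 188 with the labelled part scaled up and 452 to 3533 with a library left out (3533 without no4sU replicate A). Of the 11 entries 4 were called, and 1, 4 and 2 in these fits, with 2 to 5 when a library was left out. At 120 against 15 min, 2228 genes became 3818, 1344, 250 and 657 to 1037, and 3 entries became 4 (with Atf5, adjusted p = 0.00158), 3, 0 and 1 to 3. With no filter there were also 4 entries (Atf5, adjusted p = 0.0404). By slope, 4362 genes became 1552 with the labelled part scaled up. Scaling by library size changed the split of calls from 628 higher and 1015 lower to 203 and 1684 against no4sU, from 917 and 1311 to 426 and 1867 at 120 against 15 min, and from 2111 and 2251 to 1172 and 3031 by slope. Fits with fewer libraries thus gave fewer calls in some cases and more in others, and the causes were not tested.

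Signs turned as follows, mostly for changes near 0. With the labelled part scaled up, values against no4sU were 0.16 for Ddit3, -0.09 for Asns and 0.29 for Ppp1r15a, at 120 against 15 min 0.22 for Ddit3, -0.09 for Asns, 0.27 for Ddit4 and 0.24 for Ppp1r15a, and per 60 min 0.01 for Atf4, -0.03 for Asns, 0.13 for Ddit4, 0.17 for Ppp1r15a and 0.12 for Cebpb. With library size scaling, Asns was -0.03 against no4sU and -0.02 at 120 against 15 min, Cebpb -0.05 at 120 against 15 min and Ddit3 -0.02 per 60 min. With a library left out, values against no4sU ranged from -0.53 to 0.01 (Atf3), -0.05 to 0.11 (Asns) and -0.14 to 0.43 (Cebpb), with the unlabelled libraries at both ends, and reached 0.01 (Ppp1r15a) without 120 min A. At 120 against 15 min they ranged from -0.11 to 0.03 (Ddit3) and -0.04 to 0.05 (Cebpb), with -0.01 for Cebpb without 120 min B, and reached 0.00213 and 0.01 (Ddit4) without 15 min A and 120 min A. Per 60 min Ddit3 ranged from -0.01 (without replicate B of 30 or 90 min) to 0.04, and was -0.00112 without 15 min B. By slope, Atf3 was called without 30 min A (-0.27, edgeR adjusted p = 0.0355) and Ddit4 without 120 min B (-0.18, adjusted p = 0.0411).

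A replicate block gave 1737, 2315 and 4447 genes and 4, 3 and 4 of the 11 entries against no4sU, at 120 against 15 min and by slope, and changed no call of an entry. Deviations of same-lettered libraries correlated between -0.0722 and 0.0898 over all genes tested, so the letters showed no pairing over genes as a whole. Trib3 was lower in A than in B in each labelled group, and higher in A without 4sU. The block changed the edgeR adjusted p of its slope from 0.000678 to 7.12e-05. Pairing in single genes was not tested. Atf3 and the second Ddit3 entry had the fewest counts and the largest SEs at 120 against 15 min, 0.242 and 0.282, and the part of depth in these was not tested.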
